A study of Mus musculus with 14 samples.

Results

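CXCR3 is a chemokine receptor carried by activated T cells, natural killer cells and some other leukocytes, and in the mouse its interferon-inducible ligands are encoded by Cxcl9, Cxcl10 and Cxcl11. The 3 genes were taken from the deposited count tables by Ensembl identifier without version, 3 of the 34866 identifiers in each table, and were followed in every library of 3 mouse tumour lines after stimulation of RIG-I. RIG-I is a cytosolic sensor of viral-type RNA whose activation leads to type I interferon and NF-kB signalling, and interferon in turn acts through JAK kinases and STAT and IRF transcription factors. Secreted CXCL9, CXCL10 and CXCL11 draw CXCR3-bearing lymphocytes into tissue, which is why their production by tumour cells is of interest. Cxcl9 is the ligand classically tied to interferon gamma, whereas Cxcl10 and Cxcl11 also respond strongly to type I interferon.

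The lines were CT26, a colorectal carcinoma of BALB/c origin, E0771, a mammary carcinoma of C57BL/6 origin, and MC38, a colon adenocarcinoma of C57BL/6 origin. Each line was plated at 100000 cells per well and received a control agonist or a RIG-I agonist at 0.5 ug/ml for 24 h. CT26 gave 3 libraries for each agonist, while E0771 and MC38 gave 2 each. No untreated cells were analysed here, so folds are taken against control agonist, and each line is a single established culture rather than a set of tumours. Nothing in the labels says whether replicate libraries came from separate cultures, and p-values then cover only how these libraries vary, possibly for technical reasons alone.

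CT26 libraries summed to 32826537 to 40563960 counts, those of E0771 to 12413267 to 13399165 and those of MC38 to 12347241 to 18964432, so low values of Cxcl9 and Cxcl11 were measured with less depth in the C57BL/6 lines. Levels are CPM, counts scaled to library size, and a gene was called when edgeR's quasi-likelihood test gave a Benjamini-Hochberg adjusted p under 0.05 over all genes tested in that line. The columns of E0771 and MC38 share a prefix that those of CT26 lack, so a line and its preparation cannot be told apart for CT26 against the others. The line labels were only partly borne out by markers. Of 4 intestinal markers in CT26 controls, the keratin Krt20 was at 19.3 CPM, Cdx2 at 0.269, Vil1 at 0.0369 and Cdx1 at 0. In MC38 Cdx1 and Cdx2 were at 0 in every library, and in its controls Vil1 was at 0.472 CPM and Krt20 at 0.132. Of 5 epithelial markers in E0771 controls, Krt8 was at 243 CPM, Cdh1 at 0.432 and Epcam, Krt18 and Krt19 at 0, and of its mammary markers Erbb2 was at 46.1 CPM, Esr1 at 1.21, Gata3 at 0.276 and Krt5 and Krt14 at 0. The mammary markers did not set E0771 apart. In CT26 and MC38 controls Erbb2 was at 25.7 and 95.8 CPM, Esr1 at 14.8 and 7.07 and Gata3 at 0.759 and 2.09. Epcam had 0 counts in the controls of all 3 lines. Vim, a mesenchymal filament gene, was at 1962 to 3729 CPM in the controls of the 3 lines.

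The 3 genes lie side by side on the minus strand of chromosome 5 (GRCm38, GENCODE M21 annotation). Cxcl9 (ENSMUSG00000029417.9) spans 92321347 to 92328079, Cxcl10 (ENSMUSG00000034855.13) spans 92346638 to 92348889, and Cxcl11 (ENSMUSG00000060183.6) spans 92359544 to 92365485. Cxcl11 is annotated as a polymorphic pseudogene: C57BL/6 mice carry a frameshift in its coding sequence and make no functional CXCL11, whereas BALB/c mice encode the chemokine. The annotation shows this as models of 2 kinds, 1 with 297 coding bases in a whole reading frame and a gap of 2 bases at positions 92363177 to 92363178, and 1 with 302 coding bases that leave 2 over after division into codons. Counts of Cxcl11 in E0771 and MC38 are therefore counts of a transcript, and say nothing of a protein.

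The 250 bases before the start of Cxcl9 and Cxcl10 are shown because interferon and NF-kB factors are known to act on both genes (RefSeq, GRCm38.p6, minus strand, chr5:92328080-92328329 and chr5:92348890-92349139). RefSeq promoter entries matched 2 of the 3 genes. Capitals mark matches, on either strand, to the core of the interferon-stimulated response element (GAAANNGAA) or to an NF-kB motif (GGNNTTNCC).
Cxcl9: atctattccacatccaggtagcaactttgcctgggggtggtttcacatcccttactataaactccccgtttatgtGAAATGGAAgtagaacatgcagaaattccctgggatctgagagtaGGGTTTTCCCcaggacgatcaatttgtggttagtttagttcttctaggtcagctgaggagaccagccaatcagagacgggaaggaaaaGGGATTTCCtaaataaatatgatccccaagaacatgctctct
Cxcl10: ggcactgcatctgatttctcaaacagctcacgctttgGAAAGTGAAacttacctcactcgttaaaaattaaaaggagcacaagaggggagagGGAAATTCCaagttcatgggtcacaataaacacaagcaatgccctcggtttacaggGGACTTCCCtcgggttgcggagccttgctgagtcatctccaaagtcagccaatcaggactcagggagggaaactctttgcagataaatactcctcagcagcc
Cxcl9 held 1 response element core, 175 to 167 bases before the start, and 3 NF-kB matches, of which those at 130 to 122 and 129 to 121 bases overlap each other and the other lay 42 to 34 bases before the start. Cxcl10 held 1 response element core at 213 to 205 bases and NF-kB matches at 158 to 150 and 102 to 94 bases. The gamma-activated sequence searched (TTCNNNGAA) had no match in either window, which says only that these letters are not there. Of 32851 RefSeq promoter windows of the same length, 7.13% held the response element core, 13.5% the NF-kB motif and 7.02% the gamma-activated sequence. A match is a run of letters and not a measured binding site.

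Per kilobase of transcript, Cxcl10 was the dominant ligand in every library, and it was higher with RIG-I agonist in all 3 lines. In CT26 it was at 11.5, 11.8 and 11.8 CPM with control agonist and at 494, 489 and 509 CPM with RIG-I agonist. The replicate libraries lay close together and the groups did not overlap. Cxcl10 rose 44.0-fold in CT26 (log2 fold change 5.46, SE 0.0669, edgeR adjusted p = 2.7e-15, n = 3 per agonist), in a line where 19.8% of 13893 tested genes were called higher. E0771 started lower, at 2.64 and 1.76 CPM, and reached 117 and 85.3 CPM. That was a rise of 45.9-fold (log2 5.52, SE 0.296, edgeR adjusted p = 0.00469, n = 2 per agonist), where 1.53% of 11728 tested genes were called higher.

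MC38 differed in where it started. Its Cxcl10 was at 257 and 257 CPM with control agonist, above both E0771 libraries with RIG-I agonist. With RIG-I agonist it was at 1162 and 1167 CPM, the highest Cxcl10 level of the 6 groups. The rise was 4.52-fold (log2 2.18, SE 0.0342, edgeR adjusted p = 2.14e-21, n = 2 per agonist), where 18.9% of 12387 tested genes were called higher. From high to low the group means ran MC38 with RIG-I agonist (1164 ± 3.31 CPM, SD, n = 2), CT26 with RIG-I agonist (497 ± 10.3, n = 3), MC38 with control agonist (257 ± 0.529, n = 2), E0771 with RIG-I agonist (101 ± 22.4, n = 2), CT26 with control agonist (11.7 ± 0.143, n = 3) and E0771 with control agonist (2.20 ± 0.619, n = 2). No neighbouring pair in that order overlapped between libraries.

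Cxcl11 was also higher with RIG-I agonist, at a level per kilobase far below Cxcl10. CT26 libraries held 0.814, 0.42 and 0.678 CPM with control agonist and 26.0, 28.6 and 29.0 CPM with RIG-I agonist. Cxcl11 rose 45.3-fold there (log2 5.50, SE 0.143, edgeR adjusted p = 2.12e-12). The size of that rise was close to that of Cxcl10 in the same line. MC38 libraries held 0.947 and 0.98 CPM with control agonist and 24.4 and 24.9 CPM with RIG-I agonist, a rise of 25.4-fold (log2 4.67, SE 0.163, edgeR adjusted p = 1.11e-15). MC38 thus carried nearly as much of the transcript with RIG-I agonist as CT26, though no MC38 library reached the lowest CT26 one.

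In E0771 Cxcl11 had 0 counts in both control libraries and 1.82 and 1.78 CPM with RIG-I agonist, from 49 counts in all. Against a floor of 3 counts over the control group, which is 0.117 CPM, the transcript was at least 15.4-fold higher. The edgeR test did not call it (adjusted p = 0.0716). DESeq2 (adjusted p = 0.00561) and edgeR with no filter on low counts (adjusted p = 0.014) did call it.

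Cxcl9 was per kilobase the scarcest of the ligands in CT26 and in MC38. With RIG-I agonist it was more abundant in the C57BL/6 lines than in CT26. MC38 libraries held 0.316 and 0.303 CPM with control agonist and 5.64 and 6.37 CPM with RIG-I agonist. It rose 19.1-fold (log2 4.25, SE 0.326, edgeR adjusted p = 1.06e-09, 9 against 194 counts). E0771 libraries held 0 and 0.162 CPM with control agonist and 8.35 and 3.26 CPM with RIG-I agonist, which do not overlap but lie far apart within the agonist group. The ratio of 156 to 2 counts, scaled for depth, was 73.7 (exact 95% interval 20.1 to 614, counting error only). The edgeR test did not call it (log2 6.07, SE 1.02, adjusted p = 0.0845), whereas DESeq2 did (adjusted p = 5.57e-05). In edgeR it was called without the second control library (9.30, adjusted p = 0.0332) or the second RIG-I library (6.59, 0.0242), and not without the first control (5.11, 0.0699) or the first RIG-I library (5.23, 0.116). Each of these fits has an agonist group of 1 library, whose spread is taken from the other group.

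CT26 had very little Cxcl9 with either agonist. Its libraries held 0.0582, 0.0427 and 0 CPM with control agonist and 0.163, 0.201 and 0.229 CPM with RIG-I agonist, 4 against 22 counts in all. The groups did not overlap and the scaled ratio was 5.57 (exact 95% interval 1.89 to 22.2). The gene fell under the filter on low counts and was not part of the edgeR test; with no filter its adjusted p was 0.0259, and DESeq2 gave 0.103. Cxcl9 in CT26 with RIG-I agonist (0.198 ± 0.0334 CPM, SD, n = 3) lay below Cxcl9 in MC38 with control agonist (0.310 ± 0.00877, n = 2), with no overlap between libraries. These levels rest on 22 and 9 counts. Their 95% intervals for counting error, 0.128 to 0.309 and 0.141 to 0.586 CPM, overlap, so the 2 groups cannot be ordered with confidence. At the top of the order, MC38 (6.01 ± 0.514, n = 2) and E0771 (5.81 ± 3.6, n = 2) with RIG-I agonist overlapped, as did, at the bottom, the E0771 and CT26 controls.

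**Figure D1:**
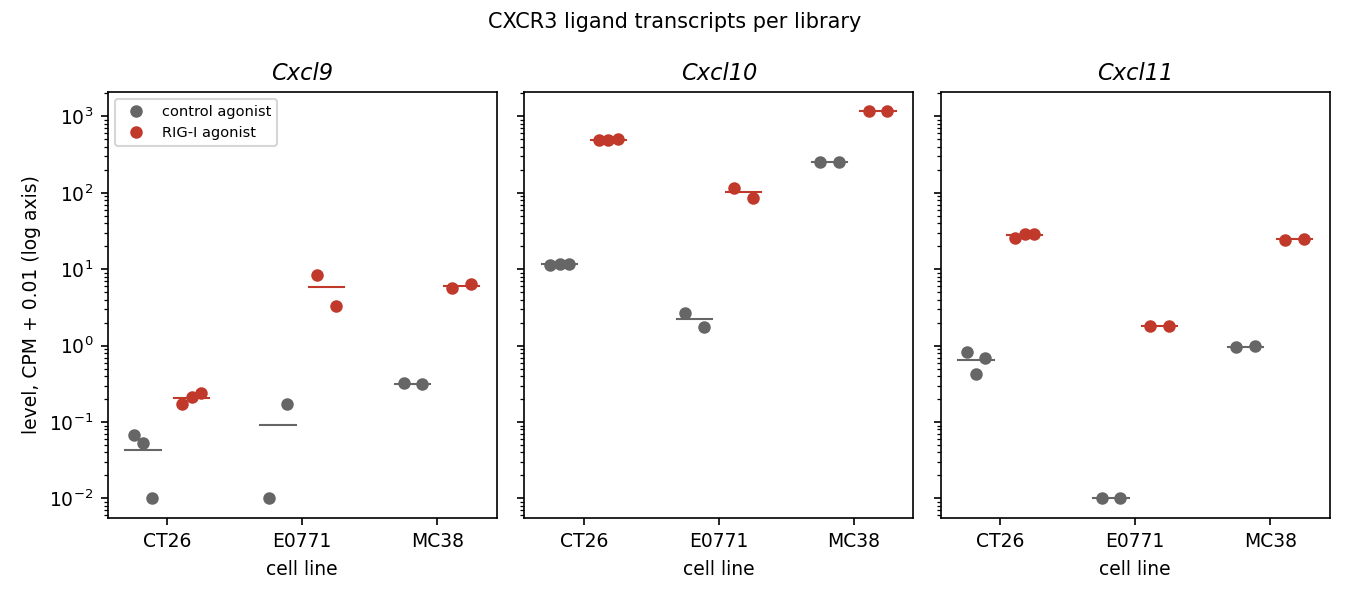
CPM of each gene in each of the 14 libraries, with 0.01 added and a log axis; points are libraries, short lines are group means, and points on the lowest level are libraries with 0 counts. Cxcl10 in MC38 controls (257 CPM) sits above Cxcl10 in E0771 with RIG-I agonist (85.3 and 117 CPM), and Cxcl9 in CT26 stays under 0.23 CPM.

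Every RIG-I library was above every control library for all 3 genes in all 3 lines. The same held for 22.0% of the tested genes in CT26, 19.7% in E0771 and 33.8% in MC38. By log2 fold change Cxcl10 ranked 38 and Cxcl11 35 of 13893 in CT26, Cxcl10 ranked 60 of 11728 in E0771, and Cxcl9, Cxcl10 and Cxcl11 ranked 16, 89 and 10 of 12387 in MC38. The median of all tested genes was within 0.01 of 0 on the log2 scale in each line. As these are bulk samples, more cells making a transcript and more transcript per cell cannot be told apart.

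The effect of RIG-I agonist on Cxcl10 differed between lines, tested as an interaction in 1 edgeR fit of the 14 libraries. On the log2 scale the effect was 3.23 larger in CT26 than in MC38 (SE 0.164, adjusted p = 2.9e-07, effects 5.41 and 2.18), which is a 9.39-fold difference between folds. It was 3.33 larger in E0771 than in MC38 (SE 0.219, adjusted p = 3.46e-06, effects 5.51 and 2.18). At the same threshold 3.8% and 2.11% of 14657 genes differed in these comparisons. Between CT26 and E0771, where 3.88% of genes differed, the difference for Cxcl10 was -0.10 (SE 0.215, 95% interval -0.57 to 0.37, adjusted p = 0.91).

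For Cxcl11 the effect was 0.77 larger in CT26 than in MC38 (SE 0.309, adjusted p = 0.201), which did not pass. Comparisons of Cxcl11 with E0771 rest on controls at 0 counts and did not pass either (adjusted p = 0.493 against CT26 and 0.436 against MC38). For Cxcl9 no pair of lines passed in edgeR (adjusted p = 0.19 for CT26 against E0771, where the unadjusted p was 0.0202, 0.437 for CT26 against MC38 and 0.578 for E0771 against MC38). The difference in the Cxcl9 effect of CT26 and E0771 was -3.80 on the log2 scale (95% interval -6.90 to -0.70 before adjustment), from 4 control counts in CT26 and 2 in E0771. The joint fit shares 1 estimate of spread, with a biological coefficient of variation of 0.122, whereas E0771 fitted alone had 0.202 and MC38 had 0.0304, so its p-values can be too small for E0771 and too large for MC38.

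**Figure D2:**
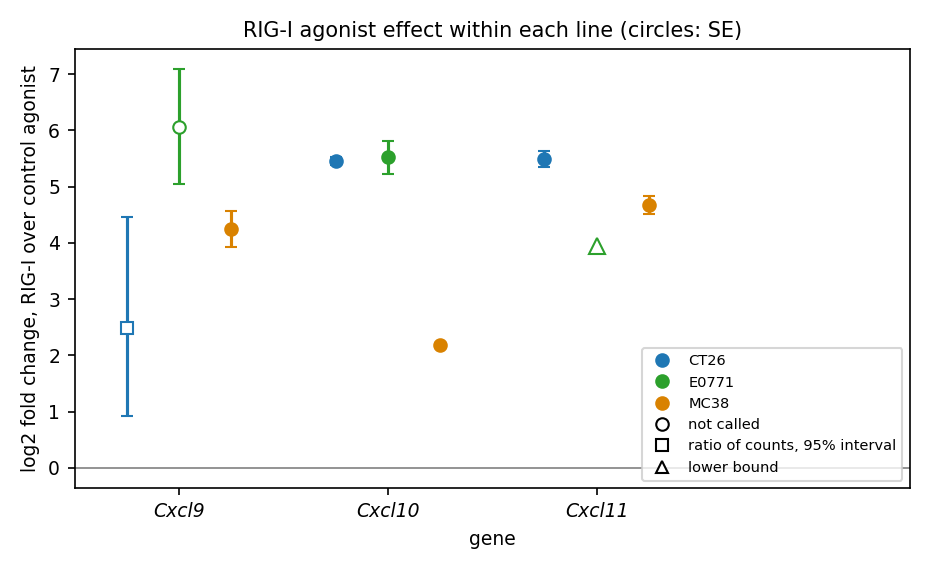
Log2 fold change of RIG-I over control agonist for each gene in each line; circles are edgeR estimates with SE, open where not called, the square is the ratio of summed counts with its exact 95% interval, and the triangle is a lower bound from a floor of 3 counts. Cxcl10 sits at 5.46 in CT26 and 5.52 in E0771 and at 2.18 in MC38.

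The balance between the ligands also differed between lines. Divided by the length of the main transcript model (2889 bases for Cxcl9, 1094 for Cxcl10 and 1581 for Cxcl11), Cxcl10 made up 95.2% to 97.5% of the summed CPM per kilobase of the 3 genes in CT26 controls and 96.1% to 96.5% with RIG-I agonist. In E0771 it made up 96.6% and 100% in controls, and 96.4% and 97.2% with RIG-I agonist. In MC38 its share was 99.7% in both controls and 98.3% and 98.4% with RIG-I agonist. With the longest model of each gene the share of Cxcl10 was at least 95.9% in every library.

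Set against Cxcl10 counts within the same library, Cxcl11 kept its proportion in CT26. There were 70.7, 35.7 and 57.7 Cxcl11 counts per 1000 Cxcl10 counts in the controls and 52.7, 58.5 and 57.1 with RIG-I agonist, and the groups overlap. In MC38 the proportion went from 3.68 and 3.82 with control agonist to 21.0 and 21.3 with RIG-I agonist, with no overlap. E0771 with RIG-I agonist had 15.6 and 20.9, beside 0 in both controls. The 2 C57BL/6 lines thus had fewer Cxcl11 counts per Cxcl10 count with RIG-I agonist than any CT26 library with that agonist. Strain, preparation and the line itself cannot be told apart in that difference. Tissue of origin does not follow the same division, as CT26 and MC38 are both of colorectal or colon origin, and its part was not tested.

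Cxcl9 per 1000 Cxcl10 counts spread more widely. With RIG-I agonist the value was 0.33, 0.411 and 0.451 in CT26, 4.86 and 5.46 in MC38, and 71.4 and 38.2 in E0771. The lines did not overlap, and E0771 had the most Cxcl9 for its Cxcl10. In MC38 the proportion was higher with RIG-I agonist than in the controls (1.23 and 1.18). In CT26 the controls were at 5.05, 3.63 and 0, from 0 to 2 Cxcl9 counts each, and no direction can be read from them. These proportions are descriptions and were not tested.

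**Figure D3:**
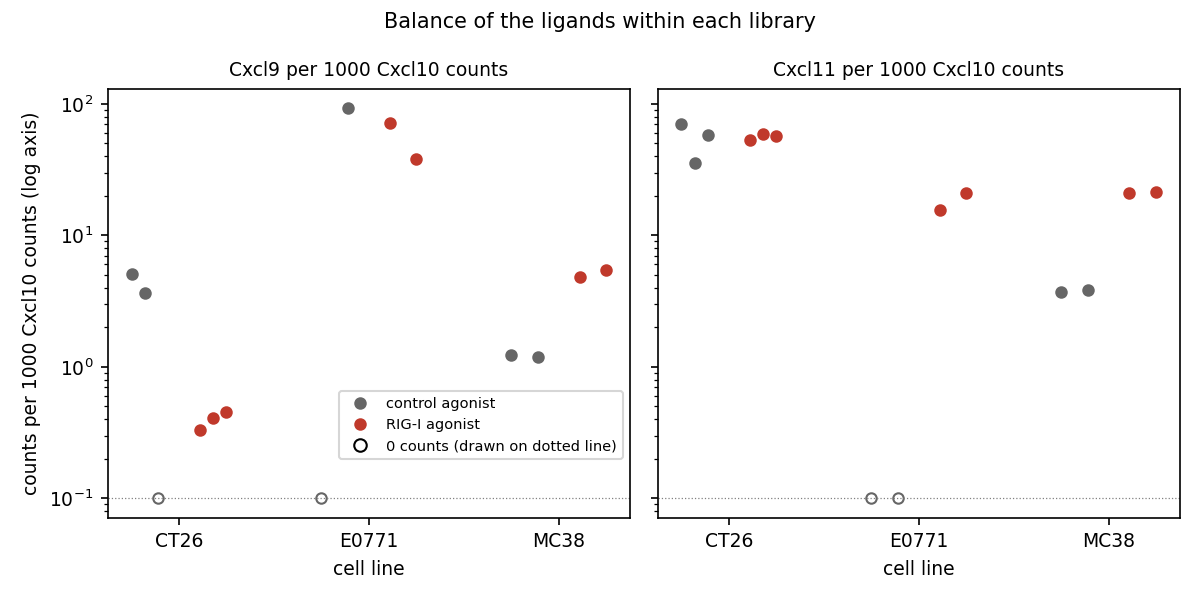
Counts of Cxcl9 (left) and Cxcl11 (right) per 1000 Cxcl10 counts in each library, log axis; filled points are libraries, and open points on the dotted line are libraries with 0 counts. In MC38 Cxcl11 moves from 3.68 and 3.82 to 21.0 and 21.3, while in CT26 the agonist groups overlap.

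The receptor itself was all but unread in these tumour cells. Cxcr3 had at most 2 counts in any group of libraries, and the CXCL-binding scavenger receptor Ackr3, known to take up CXCL11 and CXCL12, was the tested member of its group in CT26, where it rose from 15.8 to 21.6 CPM (log2 0.49, SE 0.0832, edgeR adjusted p = 0.000421). Ackr3 was at 10.9 and 19.4 CPM in E0771 (adjusted p = 0.796) and near 0 in MC38. Dpp4, a peptidase that trims the ligands, was at 24.1 and 17.8 CPM in E0771 (adjusted p = 0.759) and near 0 in the other lines. Neither gene passed an unadjusted p under 0.05 or DESeq2 in E0771, and no gene of this group was tested in MC38.

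Some interferon inputs to the ligand genes were called higher in each line, and others were called lower or not at all. Of a list of 16 interferon, receptor, JAK, STAT and IRF genes, 8 rose and 1 fell (Ifnar1, a receptor chain) of 15 tested in CT26, where 19.8% of all tested genes were called higher and 18.6% lower. In E0771 5 rose and 0 fell of 15 tested, where 1.53% of all genes were called higher and 0.0256% lower. In MC38 8 rose and 2 fell (Ifngr1 and Irf3) of 14 tested, where 18.9% were called higher and 16.9% lower. The median log2 fold change of the list was 0.24, 0.56 and 0.37 in CT26, E0771 and MC38, against 0.000609, -0.00753 and -0.00459 over all genes. DESeq2 called 8, 7 and 7 of the list higher and 1, 0 and 0 lower, so neither fall in MC38 was called by DESeq2. No E0771 member was lower at an unadjusted p under 0.05.

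Ifnb1, which encodes interferon beta, went from 0.0582 to 0.273 CPM in CT26 control libraries to 108 to 115 CPM with RIG-I agonist. It reached 12.9 and 13.5 CPM in E0771 and 3.35 and 3.56 CPM in MC38, from 1 and 2 control counts, and it was called in each line (edgeR adjusted p = 2.75e-13, 0.00761 and 6.91e-08). MC38 thus had the least Ifnb1 with RIG-I agonist and the most Cxcl10. Ifng, the gene of interferon gamma, was not tested in any line, with 0 or 1 count per line and agonist.

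Irf7, an interferon-induced IRF that amplifies interferon transcription, rose by 2.51, 5.43 and 2.58 on the log2 scale in CT26, E0771 and MC38. Stat2 (2.22, 3.14 and 1.12), which acts with Irf9 in the complex that binds the response element, was called in all 3 lines. Irf1, which binds the same element, rose by 1.59, 2.40 and 0.86. Irf9 rose by 0.83 in CT26 and 0.36 in MC38, and its 1.15 in E0771 was not called (edgeR adjusted p = 0.133). With control agonist Irf1 was at 118 CPM in MC38, against 49.7 in CT26 and 20.1 in E0771, and Stat2 at 129.9, 69.3 and 29.3 CPM. For Irf1 and Stat2 MC38 had the highest control level, as it had for Cxcl10, whereas Irf7 was highest in CT26 controls (188 CPM, against 10.8 in E0771 and 24.9 in MC38). Control Irf9 was at 76.6 CPM in CT26, 73.4 in MC38 and 33.4 in E0771, and the CT26 and MC38 libraries overlapped. These differences in control level were not tested.

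Some NF-kB inputs rose as well. Of 8 listed genes 4 rose of 7 tested in CT26, 1 of 8 in E0771 and 5 of 7 in MC38 by edgeR, where 19.8%, 1.53% and 18.9% of all tested genes did. None fell, also at an unadjusted p under 0.05 or by DESeq2. The unadjusted threshold was passed by 5, 7 and 5 genes that were higher, and DESeq2 called 5, 4 and 4. The list's median log2 fold change was 0.30, 1.0 and 0.29. Relb, an NF-kB subunit of the non-canonical pathway, was called in each line (0.82, 1.92 and 0.55). Nfkbia, the NF-kB inhibitor that is itself an NF-kB target, rose by 2.10 in CT26 and 0.32 in MC38, and its 2.21 in E0771 was not called (adjusted p = 0.0717). Nfkb2 rose by 0.43 in MC38, with values of 0.16 in CT26 and 1.2 in E0771 that were not called. Nfkbiz, an inducible co-regulator, rose by 0.64 in CT26. Its 0.80 in E0771 and 0.09 in MC38 were not called (edgeR adjusted p = 0.403 and 0.533). Tnf, which encodes a cytokine that activates NF-kB, was tested in E0771 alone (log2 3.02, adjusted p = 0.102). Rel was not called in any line (0.18, 0.52 and -0.15).

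Genes of signalling feedback and of chemokine RNA turnover rose in part. All 5 listed were called higher in CT26, 1 in E0771 and 3 in MC38 by edgeR, beside the same 19.8%, 1.53% and 18.9% of all tested genes. At an unadjusted p under 0.05 they were 5, 3 and 4, and by DESeq2 4, 2 and 2. Usp18, which damps signalling from the type I interferon receptor, rose by 2.15, 5.0 and 1.78 on the log2 scale in CT26, E0771 and MC38. Socs1, an inhibitor of JAK kinases, rose by 1.22 in CT26 and 0.85 in MC38, and its 0.86 in E0771 was not called (edgeR adjusted p = 0.185). Zfp36, whose product binds AU-rich RNA and promotes its decay, rose by 2.53 in CT26 and 0.26 in MC38. Its 1.12 in E0771 was not called (edgeR adjusted p = 0.191). Socs3 (0.54) and Elavl1 (0.18), an RNA-stabilizing factor, were called in CT26.

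Ezh2 and Dnmt1 have been linked to silencing of these chemokines in tumours. Of 4 chromatin repressors listed, Suz12 fell by 0.21 and Eed rose by 0.22 in CT26, both parts of the Polycomb complex that holds Ezh2. By edgeR none of the 4 was called in E0771 or MC38, where 0 and 1 had an unadjusted p under 0.05, and DESeq2 called none. Ezh2 itself had values of -0.07, -0.14 and 0.08 on the log2 scale, and Dnmt1, the maintenance DNA methyltransferase, had -0.07, -0.30 and -0.04.

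**Figure D4:**
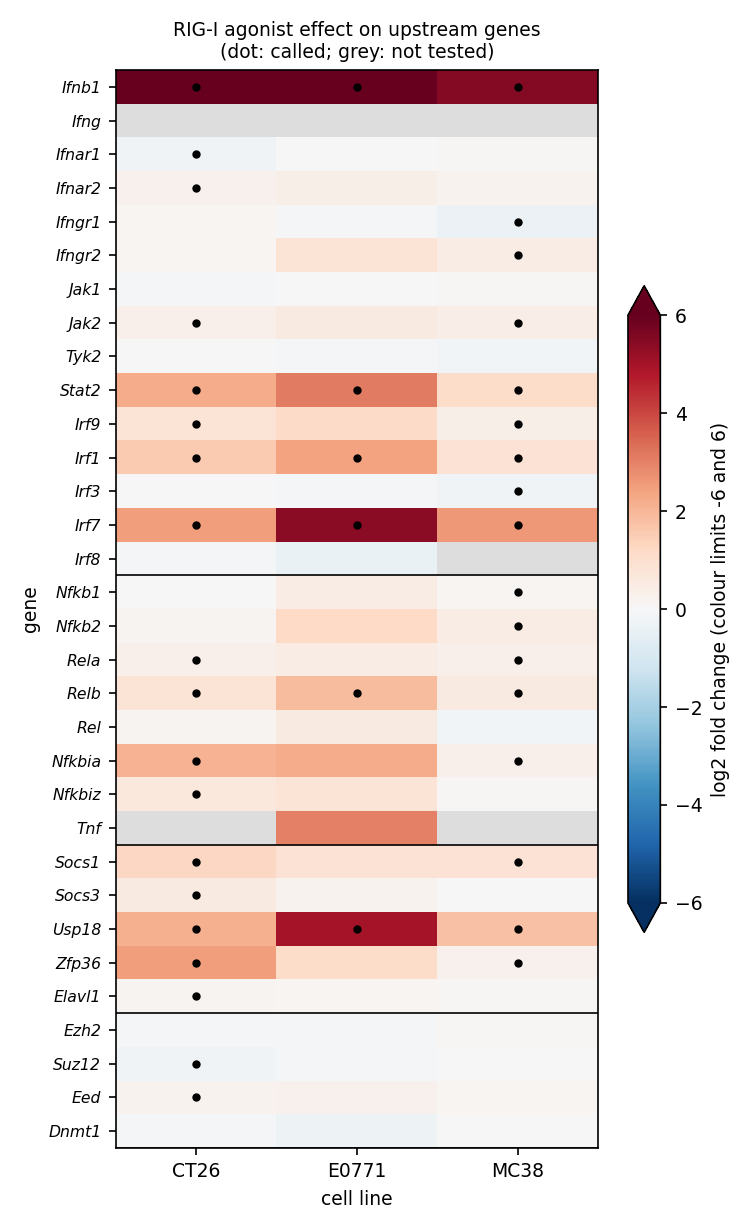
Log2 fold change of RIG-I over control agonist in each line for the interferon, NF-kB, feedback and chromatin genes, in blocks from top to bottom; colour limits are -6 and 6, dots mark genes called by edgeR, and grey cells were not tested; 1 gene of the interferon list is not drawn. Among the lines, Irf7 and Usp18 are each darkest in E0771 (5.43 and 5.0). Ifnb1 lies past the upper limit in CT26 and E0771 (9.58 and 8.11), and its values, from controls with few counts, depend on the prior count.

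Leukocytes are a familiar source of these ligands, and their markers were low in all libraries. Of 13 leukocyte markers, 3 were tested in CT26, 1 in E0771 and 2 in MC38, and edgeR called none. At an unadjusted p under 0.05 the counts were 0, 1 and 1 (Lyz2, lower with RIG-I agonist), and DESeq2 called none. Their summed level was 1.41 to 2.17 CPM in CT26 controls and 1.65 to 2.43 with RIG-I agonist. In MC38 it was 4.23 to 5.05 and 3.03 to 3.59 CPM, and in E0771 10.0 and 6.00 to 6.30, mostly Lyz2 (9.03 and 4.75 CPM). The macrophage marker Adgre1 was at 0 in every CT26 and E0771 library, and Nkg7, of cytotoxic lymphocytes, at 0 in every CT26 and MC38 library. Other markers of the list had counts. In CT26 with control and RIG-I agonist, Cd8a had 66 and 74 counts, Cd79a 29 and 42 and Ptprc 20 and 27. In MC38 the same genes had 25 and 22, 15 and 8, and 16 and 7 counts. In E0771 they had 7 and 5, 7 and 2, and 5 and 0 counts. Csf1r, the receptor of a macrophage growth factor, went from 1 to 12 counts in E0771 and from 8 to 15 in MC38, and Itgax, of myeloid cells, from 5 to 12 counts in E0771. Both lay under the filter, and their part in the ligand results was not tested. Of 4 endothelial markers Kdr alone was called, in CT26, where it went from 1 count to 108 (0.999 CPM), and the defining marker Cdh5 had 1 count with each agonist there. Cdh5 was at 3.29 and 4.05 CPM in MC38 with control and RIG-I agonist, and went from 1 to 16 counts in E0771. In the same order of agonists Pecam1 was at 1.53 and 2.12 CPM in CT26, 9.37 and 11.3 in E0771 and 10.0 and 7.79 in MC38. Tek was not tested in any line.

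The genes whose pattern over the 14 libraries was most like that of each ligand were ranked by the root mean square difference of centred log2(CPM + 0.5), over 14657 genes. For Cxcl10 they were Hap1 (1.35), Hsh2d (1.36), Tnfsf10 (1.37), Rsad2 (1.38) and Psmb10 (1.48). Tnfsf10 encodes a death ligand, Rsad2 an antiviral enzyme and Psmb10 an immunoproteasome subunit. For Cxcl11 they were Ifit3b (0.98), Tlr3 (1.05), Spats2l (1.05), Ifi214 (1.06) and Sp110 (1.08), and for Cxcl9 Meiob (0.59), Dnase1l3 (0.74), Spink2 (0.76), Vnn1 (0.76) and Asap3 (0.85). On the same measure Cxcl10 and Cxcl11 differed by 1.56, Cxcl9 and Cxcl11 by 2.22 and Cxcl9 and Cxcl10 by 2.59. The libraries of a line share depth and preparation, and the added 0.5 CPM shrinks the differences of a gene as low as Cxcl9.

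Overlapping genes took few counts. Art3, on the plus strand, overlaps exons of Cxcl10, and had at most 22.4 counts in a library. That overlap came to 266 bases when summed over pairs of exons from all models, so a base can count more than once. Gm2673, a processed pseudogene on the plus strand, covers 1582 exon bases of Cxcl11 and had at most 2.02 counts in a library. Libraries were stranded per the labels, and whether the counting used strand is not given in the sources used here.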

How the data were processed

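Stranded poly(A)+ RNA-seq of 14 libraries was analysed. The authors deposited estimated counts per gene, 1 table per line. Per the submitters' processing notes, Salmon, DESeq2 and the GRCm38 build were used; roles, versions, annotation and strand setting are not given in the sources used here. Columns were matched to samples by the names in the labels. Counts were rounded and tested per line with edgeR 4.0.16 (R 4.3.3): TMM scaling, filterByExpr at a minimum count of 10, robust quasi-likelihood F test, prior count 0.125 and Benjamini-Hochberg adjustment. The SE is the log2 fold change divided by the root of F. Levels are unrounded counts over TMM-scaled sizes of the 14-library fit, which also gave the interactions. The scripts were tested on simulated data. Of a list the text names each member called in any line or, in lists over 6 genes, up to 6 with the largest change; 1 such gene of the interferon list is counted but not reported here by name. The 3 genes and the lists were chosen with earlier results of these data known. Alternatives were DESeq2, RLE scaling, no filter, a replicate block, all libraries' spread and leaving out each library. Floors (3 counts) and intervals cover counting error only.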

Additional observations from a re-analysis of the deposited data

Results flagged for a closer look

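The effect of RIG-I agonist on Cxcl10 differed between lines by edgeR's interaction test. It was 3.23 larger on the log2 scale in CT26 than in MC38 and 3.33 larger in E0771 than in MC38. MC38 combined the highest Cxcl10 with control agonist (257 CPM) with the smallest fold (4.52), and no untreated MC38 cells were analysed here. With 2 or 3 libraries per group, no single library was tested as an outlier, and leaving out each library in turn kept both differences called.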

How the results depend on the processing

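Within a line, 66 of 76 alternatives over the 8 gene-and-line results with a main test kept direction and side of the threshold, 10 turned an uncalled result into a called one, and none reversed or lost a call. All 10 were in E0771. Cxcl9 in CT26, which had no main test, is given at the end. Cxcl9 (6.07, not called) was called by DESeq2 (6.22, adjusted p = 5.57e-05), with no filter (6.06, 0.0191), with the spread of all 14 libraries (6.13, 0.000162) and with a replicate block (6.05, 2.93e-05). Leaving out 1 library gave 5.11 to 9.30, the highest and 6.59 being called. Cxcl11 (7.59, not called) was called by DESeq2 (6.98, 0.00561), with no filter (7.58, 0.014), with the spread of all 14 libraries (8.42, 1.99e-05) and with the block (7.59, 0.00034), and leaving out 1 library gave 7.57 to 7.61, none called. Over their alternatives the adjusted p ran from 2.93e-05 to 0.116 for Cxcl9 and from 1.99e-05 to 0.147 for Cxcl11; the cause was not tested.

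Between lines, 118 of 120 alternatives over 9 results kept direction and side. The uncalled Cxcl10 difference of CT26 and E0771 (-0.10) changed sign without E0771 control 2 (0.15) and without E0771 RIG-I library 1 (0.16), in a range of -0.43 to 0.16 with 1 library left out. The Cxcl10 difference of CT26 and MC38 stayed within 3.21 to 3.26 and that of E0771 and MC38 within 3.06 to 3.65, all called.

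Counts of called genes moved more. The 5334 in CT26 became 3503 with the spread of all 14 libraries. The 183 in E0771 became 415 with DESeq2, 286 with no filter, 1588 with that spread and 2458 with the block. The 4437 in MC38 became 1957 with DESeq2 and 998 with that spread. Genes differing between CT26 and E0771 (568) became 1535 with the block and 349 to 863 with 1 library left out (349 without CT26 RIG-I library 1, 358 without library 2, 863 without E0771 RIG-I library 1). Those differing between CT26 and MC38 (557) became 1020 with DESeq2, 1816 with the block and 167 to 506 with 1 library left out, falling under 200 without any 1 MC38 library. They were 362 without CT26 control 2 and 285, 293 and 338 without CT26 RIG-I libraries 1, 2 and 3. Those differing between E0771 and MC38 (309) became 499 with DESeq2, 880 with the block and 166 to 477 with 1 library left out. They were 166 to 179 without any 1 MC38 library, 476 without E0771 control 1 and 477 without E0771 RIG-I library 2.

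Replicate numbers were not shown to pair the libraries. Deviations of same-numbered libraries correlated at 0.092, 0.084 and 0.262 in CT26, 0.639 in E0771, where 2 pairs give 1 value, and -0.0178 in MC38. Beyond Cxcl9 and Cxcl11 in E0771, the block changed no call of the 3 genes. Low counts limit Cxcl9 in CT26 (4 with control agonist and 22 with RIG-I agonist), though CT26 had the deepest libraries. Its ratio of 2.48 on the log2 scale was 2.32 to 2.52 over the 3 alternatives that could test it. It was called by edgeR with no filter (adjusted p = 0.0259) and with the spread of all 14 libraries (0.0371) and not by DESeq2 (0.103). The other alternatives in CT26 could not test it, as the gene fell under the filter. Scaling moved the median of all genes by under 0.1 on the log2 scale.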

Other observations

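Of 12 protein-coding genes within 250 kb either side of the 3 ligands, 3 rose and 3 fell of 8 tested in CT26 (all tested genes: 19.8% and 18.6%), edgeR called none of 6 tested in E0771 (1 at an unadjusted p under 0.05, none by DESeq2), and 7 rose and 1 fell of 9 tested in MC38 (all tested genes: 18.9% and 16.9%). DESeq2 called 2 higher and 3 lower in CT26 and 4 higher and 1 lower in MC38. Art3, which overlaps Cxcl10 and Cxcl11 on the other strand, rose by 2.32 on the log2 scale in CT26 (7 to 35 counts, edgeR adjusted p = 0.0134) and by 1.43 in MC38 (11 to 33 counts, adjusted p = 0.0248). The other tested neighbours moved by under 0.6. Sdad1 rose by 0.41 in CT26 and 0.54 in MC38, Scarb2 by 0.25 and 0.20, and Naaa fell by 0.54 and 0.38 in the same lines. U90926, tested in MC38 alone, had -0.38 and was not called (adjusted p = 0.44). Stbd1 fell by 0.55 in CT26 and rose by 0.42 in MC38; the difference between the lines was not tested for it.

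Other CXC chemokines without the ELR motif were too low to test. Of Pf4, Cxcl12, Cxcl13, Cxcl14 and Cxcl16 none passed the filter in any line, and their summed level was at most 0.488 CPM in any library. Cxcl12 and Cxcl14 had 0 counts in every library.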
